A study of Bombus terrestris with 70 samples.

Results

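The ovary-enriched genes of queens of the bumble bee Bombus terrestris are 280 of the 10230 genes measured in all of brain, fat body and ovary. They were chosen by their level in control queens at the early time point. Levels were taken as shares of a library's total, in ppm, and averaged over the 6 control libraries of each tissue at that time. A gene was taken where its mean in the ovary was above 20 ppm and was more than 16-fold the larger of its means in brain and fat body, after 0.1 ppm was added to each mean. The values that chose the genes are given as a description, with no test.

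Messenger RNA was sequenced from tissues of single queens, each library on 2 lanes. In the egg removal treatment the eggs that a queen laid were taken away, which the labels describe as raising her costs of reproduction. In the control treatment the eggs were taken away and then put back, so that both treatments shared the disturbance. Queens were sampled when 10% of their cohort had died (TP1) or when 60% had died (TP2). Each of the 4 ovary groups held 6 queens. The brain groups held 6 queens at TP1 and 5 at TP2, and the fat body groups held 6 queens each except 4 with values in control TP2. The labels give no strain, colony or age in days.

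A bee's ovary is a bundle of ovarioles. In each of them germline cells divide into an oocyte and its sister nurse cells, which fill the oocyte with RNA and proteins. Somatic follicle cells surround the oocyte, take part in the uptake of yolk and at the end of growth secrete the eggshell. Most yolk protein is made outside the ovary, in the fat body, and many genes of germline and follicle cells are active in no other adult tissue.

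The deposited values are read counts normalized within each tissue, so tests were made within a tissue only, and nothing was tested between tissues. A level in ppm is a share of reads and was not divided by gene length, so it ranks amounts of reads and not of transcripts. None of the 280 genes had a gene symbol other than a LOC number, and no product names were available. No function can therefore be given to any of them here, and the planned marker lists of germline, follicle, fat body, brain, muscle and blood cells could not be matched. The tissue label was checked on the enriched genes themselves, in groups that did not choose them, and the libraries labelled ovary control TP2 replicates 1 and 4 did not show the enrichment. Only 6 and 8 of the 280 genes there stood more than 4 on the log2 scale above the other tissues, and the summed share and the counts called at TP2 are given with and without these libraries. Estimated depths of the ovary libraries ran from 19.6 to 68 M reads. Genes that share reads with near-identical copies could not be recognised, and each gene below carries that uncertainty.

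In control TP1 the 280 genes together took 128328 ppm of the mean ovary library, and the 10 most abundant of them held 31.8% of that sum. The median gene stood at 182.1 ppm in the ovary, 1.52 ppm in the brain and 3.03 ppm in the fat body. Levels above 1000 ppm were reached by 31 genes. The log2 difference between the ovary and the higher of the other tissues ran from 4.00 to 8.67, with a median of 5.46. The genes just inside the threshold of 4 were LOC100648103 at 4.001, LOC100645822 at 4.005 and LOC100651461 at 4.007. The genes just outside were LOC100651405 at 3.998, LOC100648234 at 3.997 and LOC105667119 at 3.994.

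The enrichment was also seen in queens that the rule had not used. Of the 280 genes, 266 met both conditions of the rule in egg removal TP1, with a median log2 difference of 6.11. In egg removal TP2 267 genes met both, with a median of 5.89. In control TP2 140 genes met both, and the median was 4.36. The ovary was the tissue with the highest mean for all 280 genes in both egg removal groups and for 279 genes in control TP2. The control TP2 mean covers libraries that differ. Set singly against the control TP2 means of brain and fat body, replicates 1 and 4 had median log2 differences of -0.22 and -0.13, and 164 and 149 of the 280 genes were not above the other tissues. The remaining control TP2 libraries had medians of 3.13 to 5.42, and the egg removal TP2 libraries 5.55 to 6.04.

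Some of the enriched genes were neighbours in the genomic order of the measured genes. Of the 280 genes, 254 were found in the RefSeq gene table, where 248 were protein-coding, 4 were long non-coding RNAs and 2 were other RNAs. In its gene order 54 of these 254 genes, or 21.3%, stood next to another enriched gene, against 4.92% of all measured genes. The neighbours formed 16 runs, of which 6 held 3 genes or more and 10 held 2 genes. The longest run had 11 genes, from LOC100643419 to LOC100648799. Whether neighbours are copies of each other could not be checked, since no sequences were available here.

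The summed share of the 280 genes separated the control queens at TP2 from the other ovaries. In control TP1 the genes took between 8.95% and 14.9% of the ovary library, with a median of 13.3%. In egg removal TP1 they took 13% to 16.6%, and in egg removal TP2 10.3% to 15.2%. In control TP2 the 6 libraries, by replicate number, stood at 0.622%, 4.83%, 5.61%, 0.919%, 13.7% and 6.48%. Replicate 5 lay among the egg removal queens, replicates 2, 3 and 6 lay below every library of the other 3 groups, and replicates 1 and 4 lay far lower still. In the brain the share was 0.134% to 0.263% in every library, and in the fat body it was 0.0833% to 0.44%. The plot of shares by library shows this split.

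**Figure D1:**
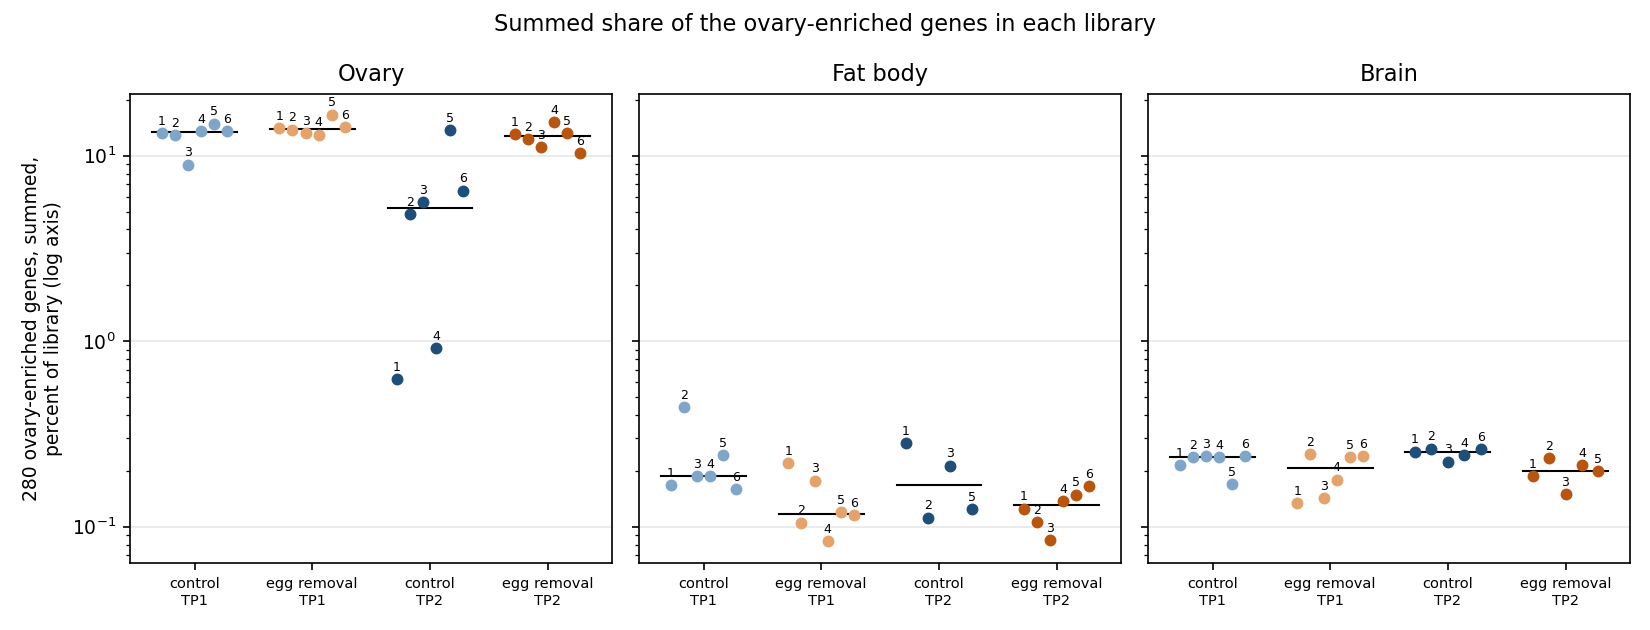
Summed share of the 280 ovary-enriched genes in each library, as percent of the library on a log axis, by tissue and group. Each point is 1 queen with its replicate number, and bars are group medians. Ovary libraries of control TP2 spread from 0.622% to 13.7%, while the egg removal TP2 libraries lie between 10.3% and 15.2%.

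The same libraries differed in how many of the genes passed a level of 20 ppm. Few genes were at 0 in any ovary: 6 in control TP2 replicate 1 and at most 2 elsewhere. Between 249 and 278 genes stood above 20 ppm in each ovary of control TP1 and of the egg removal groups. In control TP2 the numbers were 49, 176, 188, 50, 257 and 208 for replicates 1 to 6. The ratio of the mean summed share in egg removal TP2 to that in control TP2 was 1.22 on the log2 scale, and 0.71 without replicates 1 and 4, a setting chosen after seeing the data. In whole ovaries, fewer cells of a type and less RNA per cell cannot be told apart.

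Other properties also set control TP2 replicates 1 and 4 apart from the other ovaries. Genes enriched in the fat body by the mirrored rule, 114 genes, summed to 10947 ppm in control TP2 replicate 1 and 15680 ppm in replicate 4, against 891.6 to 3452 ppm in the other 22 ovaries. Genes enriched in the brain, 328 genes, summed to 12047 and 14876 ppm in those ovaries, against 1756 to 6155 ppm elsewhere. This sum was raised in the whole of control TP2. Replicates 2, 3, 5 and 6 held 5816, 6155, 3921 and 3890 ppm, against 1756 to 3097 ppm in the other groups. Estimated depth was also lowest there, at 19.6 and 23.7 M reads, while the other ovary libraries held 43.6 to 68 M. The part of the fat body and brain genes in the result was not tested, and a fit with a term for estimated depth is given with the comparison at TP2.

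Egg removal against control at TP2 asks whether the ovaries of TP2 queens differ with the treatment, and none of its libraries had chosen the genes. The time point was set by deaths in the cohort, and the labels give no age in days. Any difference in age between these groups therefore cannot be told apart from the treatment. Most ovary-enriched genes were higher in egg removal queens. Of the 280 genes tested, 237 were called higher in egg removal and 2 were called lower, at a Benjamini-Hochberg adjusted p under 0.05 in limma over all genes. Among all 10401 genes tested in the ovary 58.9% were called, 28.9% higher and 30% lower. The median log2 difference of the 280 genes was 2.71, with quartiles of 1.85 and 3.69, while the median over all genes was -0.043. A log2 difference above 1 was seen in 249 of the 280 genes, and one above 4 in 62. Over all genes these sizes were passed by 13.7% and 0.817%.

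**Figure D2:**
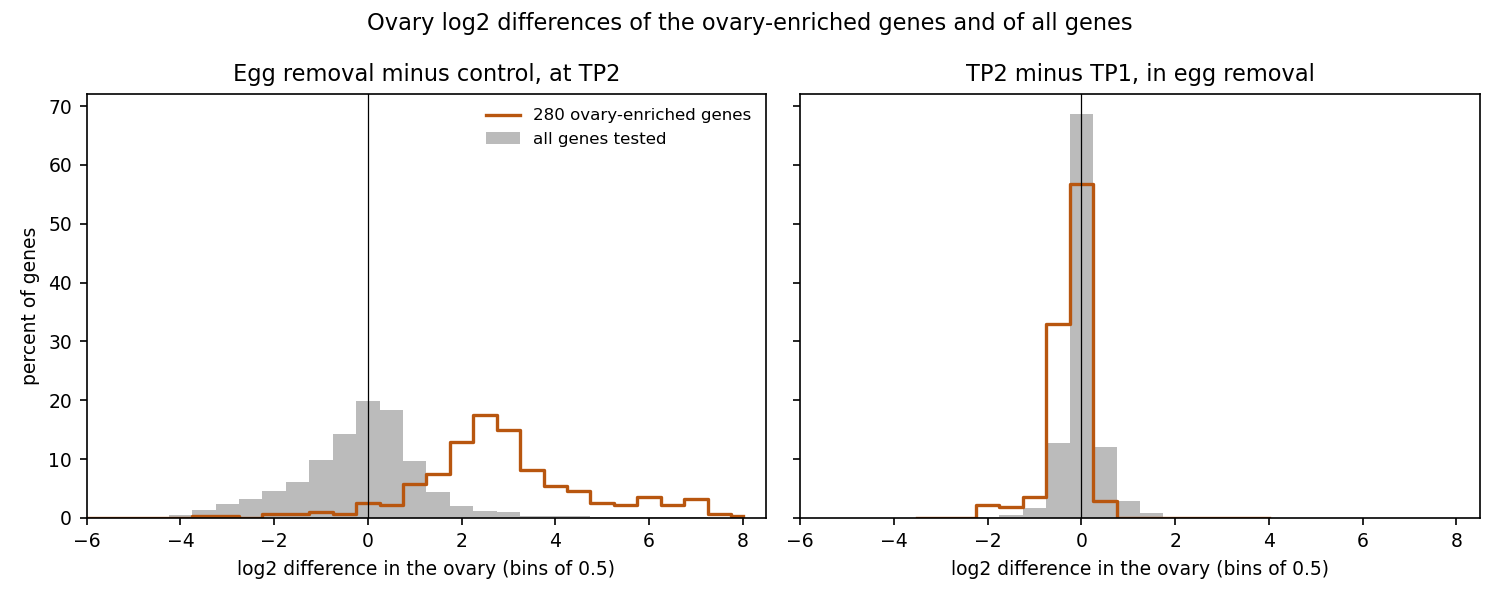
Distribution of ovary log2 differences in percent of genes, in bins of 0.5, for the 280 ovary-enriched genes (line) and all genes tested (bars). The left panel shows egg removal minus control at TP2, where the enriched genes centre on 2.71. The right panel shows TP2 minus TP1 in egg removal, where they centre on -0.19.

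The calls rest on control queens that differed widely among themselves. The median standard deviation of a member's log2 values was 2.61 in control TP2, against 0.47 in control TP1, 0.19 in egg removal TP1 and 0.33 in egg removal TP2. Over all ovary genes the medians were 0.68, 0.34, 0.17 and 0.28 in the same order. A standard deviation above 2 in control TP2 was found for 195 of the 280 genes, or 69.6%, and for 7.31% of all genes. Without control replicate 1 the median difference was 2.11 with 213 genes called higher, and without replicate 4 it was 2.08 with 214. Of all genes 25.6% and 25.7% were called higher in these fits. With replicates 1 and 4 both left out the median was 1.30, with 198 genes called higher, or 70.7%, and 5 lower, against 22.5% and 22.4% of all genes. A term for estimated depth in the fit gave 1.49, with 164 called higher, or 58.6%, and 0 lower, against 21.3% and 21.7% of all genes. The main fit averages the wide spread of control TP2 with the narrower spreads of the other groups. With the 2 TP2 groups fitted alone 179 genes were called, or 63.9%, all of them higher. Of all genes 20.4% were then called higher and 22.4% lower.

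Few genes separated the treatments completely. All 6 control TP2 queens lay below all 6 egg removal TP2 queens for 18 of the 280 genes, or 6.43%, close to the 6.92% of all genes tested. The reverse, all control queens above all egg removal queens, held for 0 enriched genes and 7.41% of all genes. With replicate 5 set aside, a choice made after seeing the data, the count was 194 genes, against 17.6% of all genes. Control replicate 1 lay below every egg removal queen for 264 genes, replicate 4 for 261, replicate 2 for 226, replicate 3 for 223, replicate 6 for 211 and replicate 5 for 45. Over all genes tested the corresponding shares were 39.4%, 38.7%, 34.1%, 34%, 26.4% and 26.2%. Replicate 5 was inside the egg removal range for 132 genes and above it for 103.

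**Figure D3:**
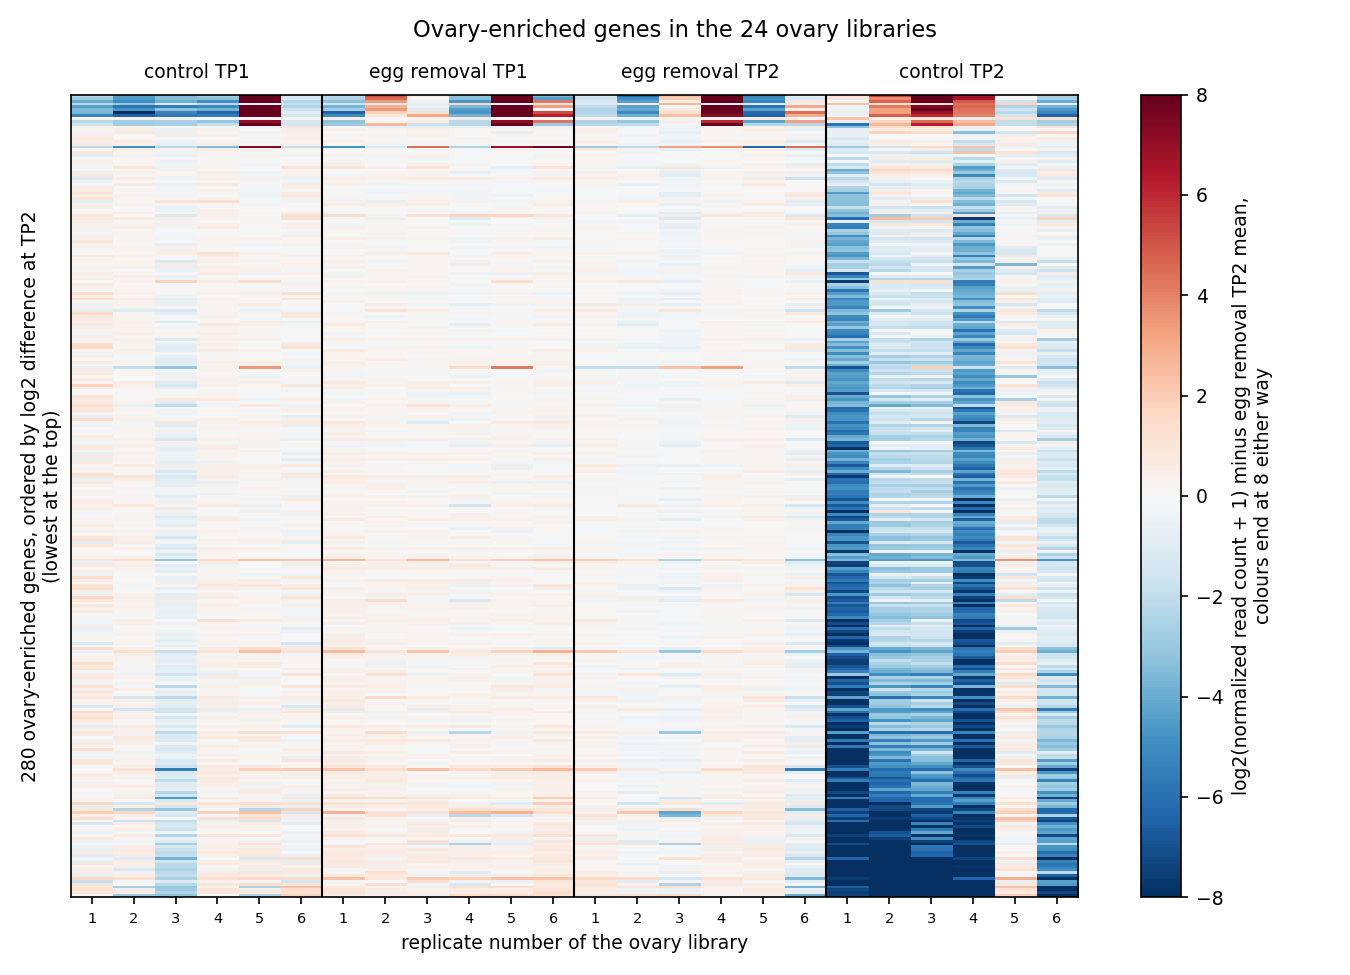
The 280 ovary-enriched genes (rows, ordered by their log2 difference at TP2) in the 24 ovary libraries (columns, replicate numbers below). Colour gives log2(normalized read count + 1) minus the gene's mean in egg removal TP2. Control TP2 replicates 1 and 4 are low for most genes, replicate 5 is near the egg removal level, and 10 genes near the top swing between queens in every group.

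The combination of low control queens divided the genes. The commonest combination, replicates 1, 2, 3, 4 and 6 all below every egg removal queen and replicate 5 not, held 176 genes, or 62.9%, against 10.7% of all genes. Their median log2 difference was 3.12. In 15 genes only replicates 1 and 4 lay below, or 5.36% against 2.78% of all genes. In 11 genes only replicates 1, 4 and 5 did, 3.93% and so near the 3.67% of all genes. Of these 26 genes 5 were called higher, and their medians were 1.33 and 1.19. In 10 genes, or 3.57%, no control queen lay below the egg removal range, against 41.9% of all genes.

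LOC100648536 had the highest mean level of the 280 genes in the ovary of control TP1, 7000 ppm, and stood at 4.12 ppm in the brain. Its normalized read count ran from 361.8 to 985640 in control TP2, with a median of 1136. In egg removal TP2 it ran from 209112 to 528705, with a median of 425805. Control replicate 5 was above every egg removal queen and the other 5 control queens were below all of them, the highest of these at 13229. The log2 difference was 6.82 ± 1.25 (SE, n = 6 and 6; limma adjusted p = 0.000174).

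LOC105665834 had the same shape and a wider spread. Its count was 30 to 627868 in control TP2, with a median of 297.4, and 7293 to 255068 in egg removal TP2, with a median of 158122. Control replicate 5 again exceeded all egg removal queens, while the other 5 control queens stood at 1048 or less. The log2 difference was 6.87 ± 1.57 (SE; limma adjusted p = 0.000954). Of the 280 genes it had the largest standard deviation of log2 values among control TP2 queens.

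LOC100648898 and its neighbour LOC100649020 came next in that spread. LOC100648898 ran from 2.55 to 51233 in control TP2, with a median of 29.5, and from 949.4 to 38775 in egg removal TP2, with a median of 21969. LOC100649020 ran from 8.17 to 69210, with a median of 34.3, and from 1140 to 34620, with a median of 20767. In both genes replicate 5 alone among control queens lay above 150 counts, and replicate 6 was the lowest egg removal queen. The log2 differences were 7.92 ± 1.58 and 7.18 ± 1.55 (SE; limma adjusted p = 0.00033 and 0.000591).

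LOC100643415 differed by less. It ran from 8877 to 348802 in control TP2, with a median of 105806, and from 230103 to 409828 in egg removal TP2, with a median of 363638. Replicates 1 and 4 held 9940 and 8877, replicates 2, 3 and 6 held 95755 to 185948, and replicate 5 lay inside the egg removal range. The log2 difference was 2.42 ± 0.62 (SE; limma adjusted p = 0.0023), and 1.05 with replicates 1 and 4 left out. LOC100647830, whose control queens stood at 9562 to 132347 (median 109981) and whose egg removal queens stood at 151482 to 349696 (median 320374), did not overlap between groups. Its log2 difference was 2.4 ± 0.54 (SE; limma adjusted p = 0.000828), and 1.22 without those replicates.

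LOC100649042, the neighbour of LOC100647830, was low in a different set of queens. It stood at 3739 to 305886 in control TP2, with a median of 157273, and at 175544 to 263870 in egg removal TP2, with a median of 236859. Replicates 1 and 4 held 7025 and 3739 and replicate 5 held 109240, while replicates 2, 3 and 6 lay inside or above the egg removal range. The log2 difference of 1.97 ± 0.76 (SE; limma adjusted p = 0.0305) was lost without control replicate 1, at 1.36, or replicate 4, at 1.18. It was 0.22 without both of them.

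LOC100648421, the last of the 6 most abundant genes, ranged from 1526 to 68261 in control TP2, with a median of 3595, and from 13207 to 201542 in egg removal TP2, with a median of 150300. Egg removal replicate 3, the lowest of its group, lay below control replicates 5 and 6. The log2 difference was 4.14 ± 0.88 (SE; limma adjusted p = 0.00054).

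The genes with the smallest p did not have the largest differences. LOC100647407 ran from 3123 to 28425 in control TP2, with a median of 7407, and from 48958 to 61870 in egg removal TP2, with a median of 53040. LOC100647354 ran from 648.4 to 1852, with a median of 1249, and from 2294 to 5043, with a median of 4369. In both genes every control queen lay below every egg removal queen, replicate 5 being the highest control. Their log2 differences were 2.78 ± 0.34 and 1.76 ± 0.23 (SE; limma adjusted p = 1.71e-05 and 1.92e-05).

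The next genes by p had replicate 5 far above the rest of control TP2. In LOC100643523 the other 5 control queens held 275.9 to 459.4 counts and replicate 5 held 17305, within the egg removal range of 9403 to 28675. In LOC105666978 they held 16.3 to 143.1 and replicate 5 held 13402, within 6105 to 22123. In LOC105665909 they held 74.9 to 1085 and replicate 5 held 5878, below the egg removal range of 7624 to 10758. LOC105665909 was thus free of overlap between the groups and the other genes were not. The log2 differences were 4.82 ± 0.70 in LOC100643523, 6.87 ± 1.01 in LOC105666978 and 4.73 ± 0.70 in LOC105665909 (SE; limma adjusted p = 3.14e-05, 3.44e-05 and 3.55e-05).

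**Figure D4:**
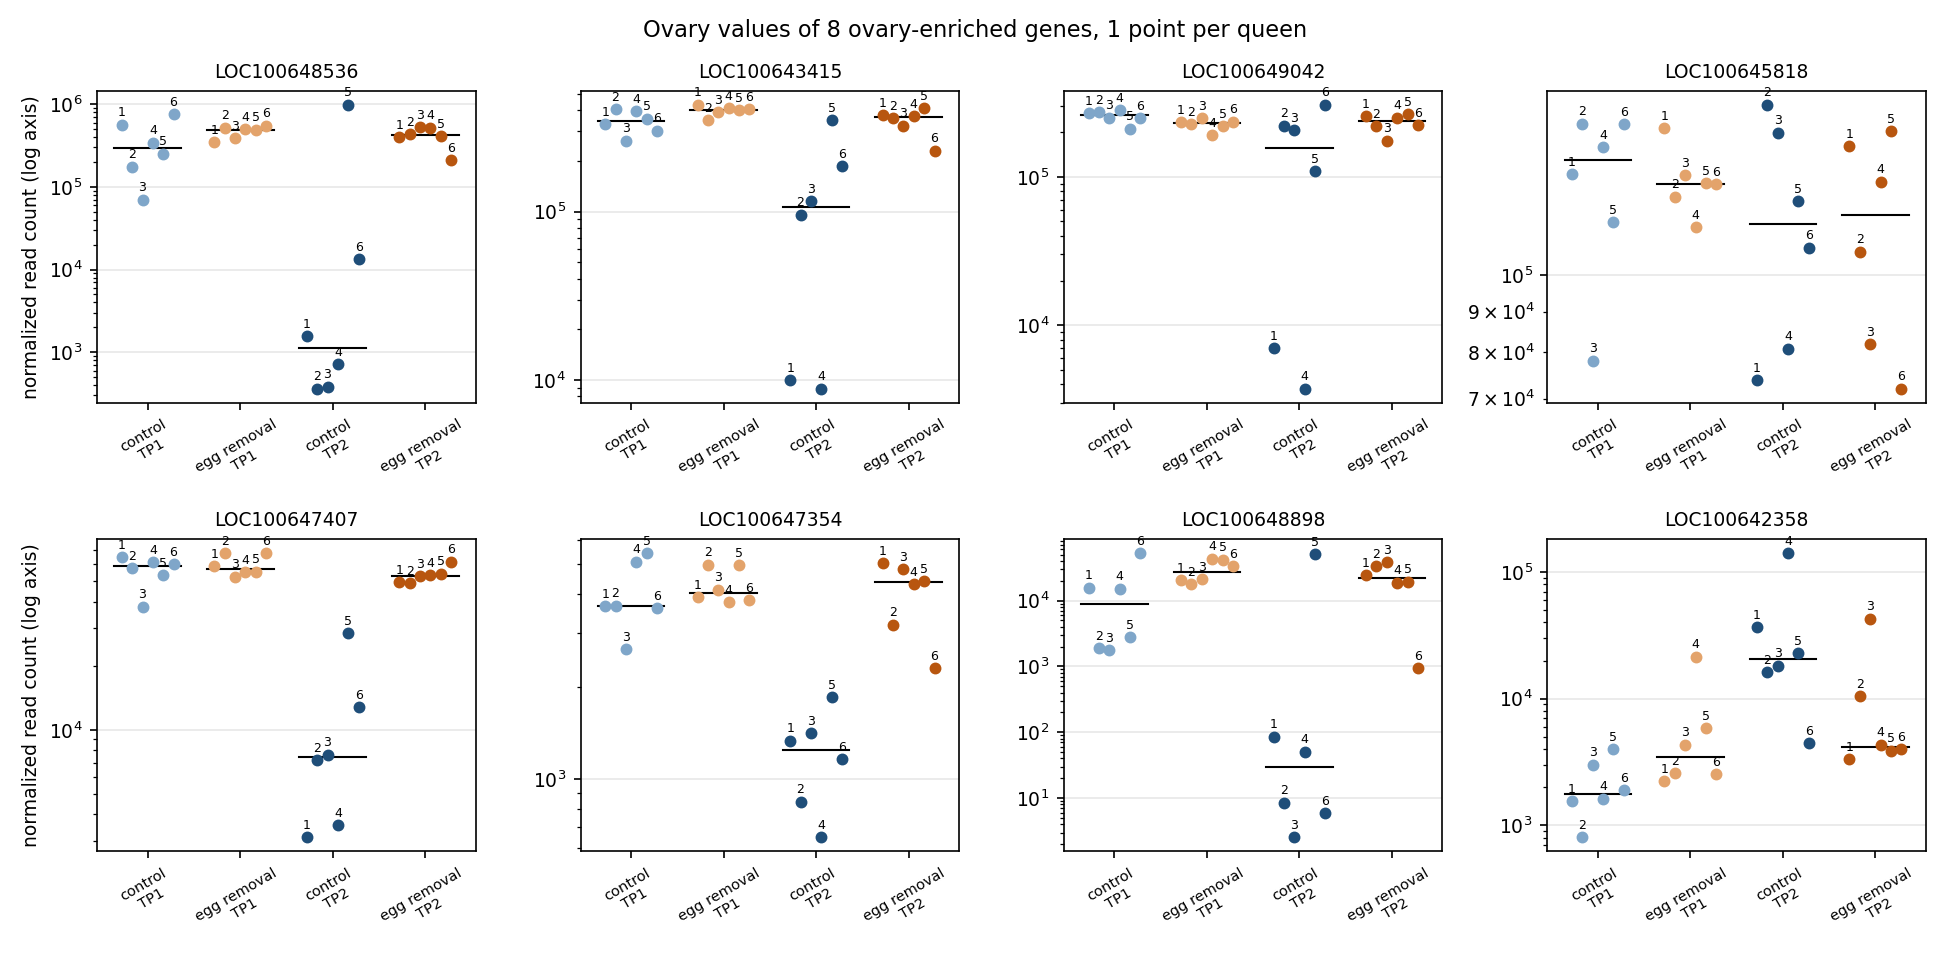
Normalized read counts on a log axis of 8 ovary-enriched genes in the 24 ovary libraries. Each point is 1 queen with its replicate number, and bars are group medians. LOC100647407 and LOC100647354 show no overlap at TP2, LOC100649042 is low in control TP2 replicates 1 and 4, and LOC100645818 has overlapping groups.

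All 11 genes of the longest run of neighbours were called higher in egg removal at TP2, as were 84.6% of all enriched genes. Their log2 differences ran from 2.66 in LOC100648799 to 7.03 in LOC100644618, with a median of 6.26. Their summed share was 2339 to 5682 ppm in egg removal TP2. In control TP2 it was 17.9, 224.2, 334.4, 58.3, 4109 and 459.3 ppm for replicates 1 to 6. Replicate 5 was within the egg removal range and the other 5 queens were below it.

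LOC100649711 held 26074 to 83801 counts in egg removal TP2 and 140.4 to 56576 in control TP2, with a log2 difference of 5.32 ± 0.93 (SE; limma adjusted p = 0.000118). LOC100644497, which was also among the genes with the smallest p, held 3031 to 7419 in egg removal and 4.27 to 4119 in control, with a difference of 6.65 ± 0.98 (SE; limma adjusted p = 3.47e-05). LOC100643419 at the edge of the run kept 1525 to 1593 counts in control replicates 2, 3 and 6, against 2474 to 4287 in egg removal. Its log2 difference of 2.92 ± 0.97 (SE; limma adjusted p = 0.0138) was 0.72 and no longer called without replicates 1 and 4.

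Every gene of the 6 runs of 3 or more was called higher. Over all runs 49 of 54 genes were called higher, with a median log2 difference of 3.89, against 2.54 for enriched genes outside runs. Among all enriched genes, in runs or not, 84.6% were called higher. Whether the share called differs between genes in runs and the others was not tested. The run of 7 genes from LOC100645277 to LOC100645974 had differences of 1.86 to 3.97. The run of 5 genes from LOC105666978 to LOC100648041 had differences of 4.64 to 7.27, and its summed share was 2.8 to 73.4 ppm in the control queens other than replicate 5, which stood at 1364 ppm. Genes of a run may share reads, so they are not independent of each other.

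The genes called lower in egg removal were LOC100649706 and LOC100642358. LOC100649706 ran from 791.6 to 5921 in control TP2, with a median of 2566, and from 892.8 to 1935 in egg removal TP2, with a median of 1116. Its groups overlapped, and the log2 difference was -0.89 ± 0.32 (SE; limma adjusted p = 0.0219). The call was lost without control replicate 1, at -0.61, and without egg removal replicate 4, at -0.79.

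LOC100642358 ran from 4467 to 140722 in control TP2, with a median of 20583, and from 3344 to 42731 in egg removal TP2, with a median of 4149. Control replicate 4, which was among the lowest queens for most other enriched genes, was the highest for this one. The log2 difference was -1.77 ± 0.71 (SE; limma adjusted p = 0.0372). The call was lost without control replicate 1, at -1.64, or replicate 4, at -1.25, and without egg removal replicate 1, at -1.56, 4, at -1.64, 5, at -1.60, or 6, at -1.61.

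The remaining 41 genes were not called. In 6 of them the 95% interval of the log2 difference lay within 1 of 0. LOC100645818, which had among the highest read shares of the enriched genes in brain and fat body, held 73880 to 163583 in control TP2, with a median of 116048, and 72050 to 151427 in egg removal TP2, with a median of 118999. Its groups overlapped over nearly their whole range, and its log2 difference was -0.02 with an interval from -0.48 to 0.44. LOC100646625, LOC100647927, LOC100648906 and LOC100650048 had differences of 0.12 to 0.21, and LOC100645822 had 0.44 with an interval from 0.02 to 0.86 (limma adjusted p = 0.06). In the other uncalled genes the interval reached further than 1.

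TP2 against TP1 in egg removal queens asks what changed with age under that treatment, and again none of its libraries had chosen the genes. No ovary-enriched gene was called, and neither was any of the 10401 genes (0% called, limma adjusted p of 1). At an unadjusted p under 0.05 limma gave 1 of the 280 genes, or 0.357%, and 286 of all genes, or 2.75%. The median log2 difference was -0.19, with 223 genes lower at TP2 and 57 higher, and the median over all genes was -0.008. The 95% intervals reached a median of 1.54 to either side of the estimate and lay within 1 of 0 for 27 genes. In this fit, differences of that size could not be told from 0 for most genes. The fit took 1 spread per gene over all 4 ovary groups, so the intervals also carry the spread of control TP2. A member's median standard deviation was 2.61 there, against 0.19 in egg removal TP1 and 0.33 in egg removal TP2. The widths thus do not measure the spread of egg removal queens alone. With these 2 groups fitted alone, 0 enriched genes were called.

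For each direction the 3 enriched genes of smallest p are given, although none was called. LOC100646611 ran from 1299 to 3185 at TP1, with a median of 2554, and from 434.2 to 1913 at TP2, with a median of 1156. The groups overlapped and the difference was -1.26 ± 0.57 (SE; limma adjusted p = 1). LOC105666061 and LOC105666934 were lower at TP2 by estimates of -1.95 ± 1.22 and -1.85 ± 1.06. In both genes egg removal TP2 replicates 3 and 6 held 91.1 to 170.3 counts, while the other TP2 queens held 1274 to 3832 and the TP1 queens 1271 to 5715.

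LOC100646027 ran from 1221 to 2409 at TP1, with a median of 1608, and from 1826 to 3210 at TP2, with a median of 2344. Its groups overlapped and the difference was 0.50 ± 0.52 (SE; limma adjusted p = 1). LOC100648790 stood at 17975 to 22752 and then at 20393 to 23776, a difference of 0.22 ± 0.45, and LOC100642358 had 0.61 ± 0.71. None of these was called.

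Comparisons with control TP1 are given as values only, since those queens chose the genes. Egg removal TP1 minus control TP1 had a median log2 difference of 0.11, with 174 genes higher and 106 lower. Control TP2 minus control TP1 had a median of -2.78, with 268 genes lower and 12 higher, and 251 genes were lower by more than 1. Egg removal TP2 minus control TP1 had a median of -0.07. These comparisons share their control TP1 queens. In control TP1 itself, replicate 3 was the lowest queen for 191 of the 280 genes, with a summed share of 8.95%.

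A group of 10 enriched genes varied between queens in a way of its own. They were singled out after their values were seen, as the members whose log2 values had a standard deviation above 2 in egg removal TP1, and are described with no test. They are LOC100642676, LOC100642795, LOC100642915, LOC100643150, LOC100646617, LOC100647339, LOC100649426, LOC100650437, LOC100651713 and LOC105665991. Over the 24 ovaries their values moved together, with Spearman's rho of 0.53 to 1.00 for their 45 pairs and a median of 0.86. The pairs share libraries.

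The level of these genes was near 0 in many ovaries, very high in a few and between these in others. The median of the 10 genes was, for example, 948.7 counts in egg removal TP1 replicate 2 and 3315 in control TP2 replicate 4. LOC100643150 held 237341 counts in control TP1 replicate 5 and 5.16 to 44.5 in the rest of that group. It held 642935 in egg removal TP1 replicate 5, 356949 in egg removal TP2 replicate 4 and 120219 in control TP2 replicate 3. In the other queens of those groups it reached at most 13363. High queens thus occurred at both time points and in both treatments. The 10 genes made up 20317 ppm of the ovary library in control TP1 replicate 5 and 35520 ppm in egg removal TP1 replicate 5, against 0.669 ppm in egg removal TP2 replicate 5.

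**Figure D5:**
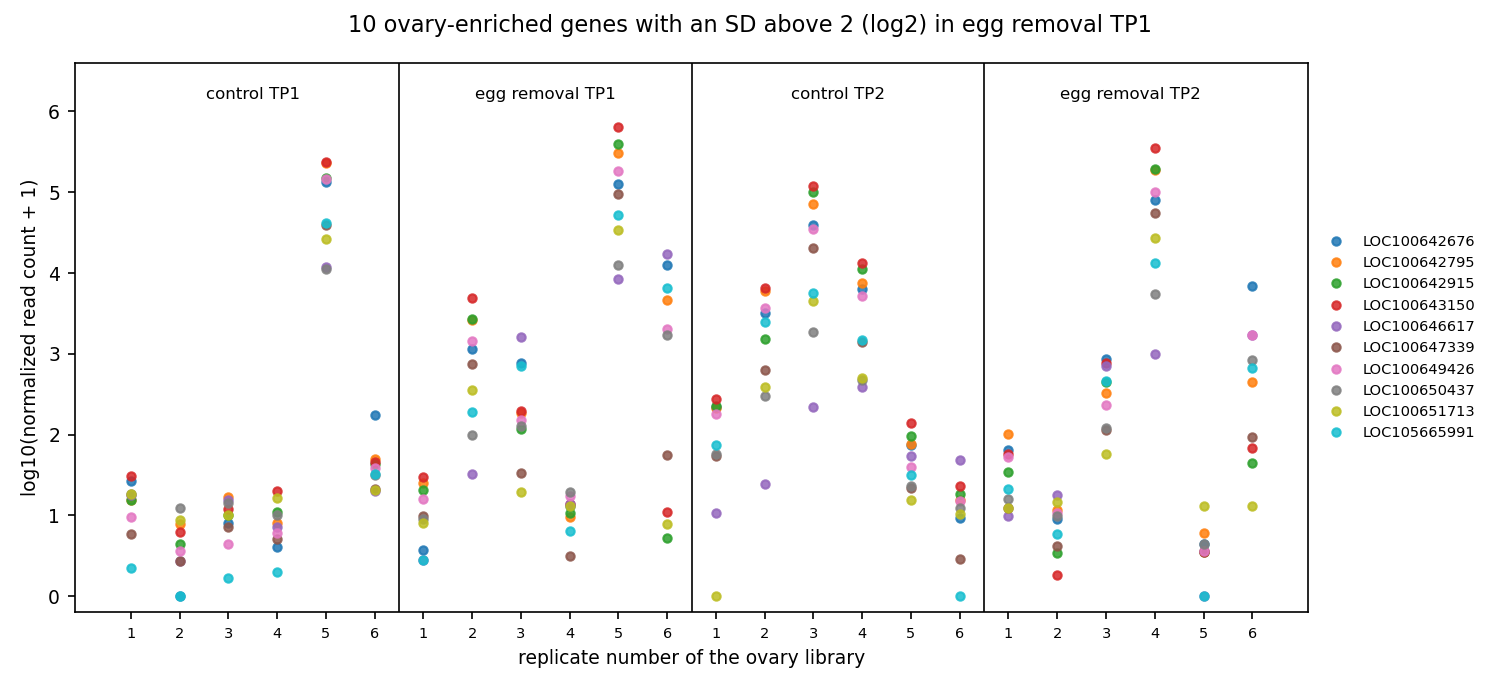
Level of the 10 genes that swing between queens, as log10(normalized read count + 1), in the 24 ovary libraries, by group and replicate number. Each point is 1 gene in 1 queen. All 10 genes are high in control TP1 replicate 5 and egg removal TP1 replicate 5, and most of them in egg removal TP2 replicate 4 and control TP2 replicate 3.

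The membership of these genes depended on 1 queen. Without control TP1 replicate 5 in the ovary, the rule kept 0 of the 10 genes. None of the 10 was called between egg removal and control at TP2, and they account for 9 of the 13 enriched genes with a negative estimate there. Among the other 270 genes 237 were called higher and 31 were not called. LOC105665991, which was named for its spread in control TP2, had a log2 difference of -1.09 ± 2.89 (limma adjusted p = 0.757).

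In the brain most of the enriched genes had low shares of the library. The median gene stood at 1.40 to 1.72 ppm in the 4 groups, and between 20 and 32 genes had a mean above 20 ppm. LOC100647830 was the highest, at 159.8 to 190.3 ppm over the groups. LOC100645818 stood at 111.9 to 146.6 ppm, and LOC100643415 at 102.2 to 132.9 ppm. In the fat body LOC100647830 stood at 75.5 to 145.1 ppm, LOC100643415 at 77.3 to 144.6 ppm and LOC100645818 at 50 to 128.4 ppm. The ranges of the 3 genes overlap in both tissues.

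Egg removal against control at TP2 changed few of these genes in the brain. Of 279 tested, 1 was called higher and 9 lower, or 3.58%, against 8.57% of all genes, of which 3.68% were higher and 4.89% lower. The median log2 difference was 0.02, and 0.002 over all genes. When every library was brought to one total, the calls were 0 higher and 7 lower, 5 of them shared with the deposited scaling. Of all genes 0.173% were then called higher and 2.96% lower, and the median of all genes moved to -0.298. Leaving out control replicate 3 gave 16 calls, or 5.71%, against 16.9% of all genes. Leaving out control replicate 1, 2, 4 or 6 or egg removal replicate 1, 2 or 3 gave 3 to 5, or 1.07% to 1.79%, against 4.85% to 6.21% of all genes.

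The brain genes called under both scalings were LOC100645258, LOC100649426, LOC100648399, LOC100650633 and LOC100644634, which were named after their values were seen. LOC100645258 held 1229 to 1633 counts in egg removal TP2, with a median of 1331, and 1932 to 2911 in control TP2, with a median of 2022. LOC100649426, one of the genes that swing between queens in the ovary, held 293.8 to 1192 with a median of 353.7, and 1259 to 3160 with a median of 2254. Neither gene overlapped between the groups. The log2 differences were -0.73 ± 0.12 and -2.10 ± 0.39 (SE, n = 5 and 5; limma adjusted p = 0.00104 and 0.0026).

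With age in egg removal queens no enriched gene was called in the brain by limma, and 0.0481% of all genes were. At an unadjusted p under 0.05 there were 11 enriched genes, or 3.94%, and 5.84% of all genes. The median log2 difference was -0.07.

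In the fat body the median enriched gene stood at 1.49 to 3.03 ppm. Control TP1 replicate 2 had the highest summed share, 0.44%, with 58 genes above 20 ppm, and 219 of the 280 genes, or 78.2%, were higher there than in the other 5 queens, against 38.8% of all genes. This library took part in the choice of the genes.

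Egg removal against control at TP2 in the fat body gave 2 enriched genes called higher and 0 lower, against 4.6% of all genes called, 2.31% higher and 2.29% lower. LOC100645719 held 161.2 to 569.8 counts in egg removal, with a median of 319.9, and 80.7 to 135.5 in control, with a median of 101.7. The groups did not overlap, and its log2 difference was 1.56 ± 0.29 (SE, n = 6 and 4; limma adjusted p = 0.00942). LOC100643537 had 0.61 ± 0.15 (limma adjusted p = 0.0258) and was not called when every library was brought to one total. The calls were then 1 higher and 1 lower, against 0.732% and 3.52% of all genes, and the median of all genes moved to -0.257. Leaving out control replicate 5 gave 10 calls and egg removal replicate 6 gave 5, against 13.2% and 8.28% of all genes. Leaving out control replicate 1, 2 or 3 or egg removal replicate 2 left 1, against 0.116% to 2.84% of all genes.

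With age in egg removal queens 9 enriched genes were called in the fat body, all of them lower at TP2, or 3.21%. Among all genes 5.99% were called, 2.56% higher and 3.43% lower, and the medians were -0.37 for the enriched genes and 0.038 for all genes. The split by direction moved with the scaling. When every library was brought to one total the calls were 5 higher and 4 lower, the median of all genes moved to 0.43 and that of the enriched genes to 0.04. Leaving out egg removal TP2 replicate 3 gave 16 calls, or 5.71%, against 14.3% of all genes. Leaving out TP2 replicate 1 or 5 gave 2 calls, replicate 6 gave 5, TP1 replicate 2 gave 3 and TP1 replicate 3 gave 2. The shares of all genes in those fits were 1.02%, 0.51%, 3.38%, 1.17% and 0.732%, so the counts moved with the background.

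The fat body genes lower at TP2 under both scalings were LOC100645512, LOC100645974, LOC100646144 and LOC105665878. LOC100645974 held 259.9 to 598.2 counts at TP1, with a median of 495.6, and 55.9 to 172.3 at TP2, with a median of 123.5. LOC100645512 held 385.5 to 1323, with a median of 586.6, and 107.3 to 310.6, with a median of 198.3. The groups did not overlap in either gene, and the log2 differences were -1.95 ± 0.38 and -1.80 ± 0.34 (SE, n = 6 and 6; limma adjusted p = 0.0135 for both). Both genes belong to the run of 7 neighbours, and LOC100646144 and LOC105665878 form a run of 2, so reads may be shared within each.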

How the data were processed

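The deposited tables give read counts per gene normalized within each tissue by the authors, a signal that is not whole reads, with no further step given in the file headers. Values were therefore tested with limma on a log scale, where a count model had been planned for raw counts. The submitters' processing notes name kallisto 0.46.1, R 4.0.1 and DESeq2 1.28.1. The genome build and any filter are not named. Per the labels' protocols, each stranded TruSeq mRNA library held one tissue of a single queen. The p-values thus reflect a spread between queens, averaged over the 4 groups of a tissue and not taken from the compared groups alone.

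Of 70 labelled samples 68 were used; fat body control TP2 replicates 4 and 6 were not analysed here. The normalized values carry no depth of their own, and depth was estimated by dividing each total by the value of 1 read, taken from the lowest cluster of positive values, at 19.6 to 68 M reads in the ovary, 24.1 to 56 M in the brain and 12.1 to 60.2 M in the fat body.

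Each tissue was fitted alone over its 4 groups on log2(value + 1), with trended and robust variances (limma 3.58.1, statmod 1.5.0, R 4.3.3; Python 3.11.15 and pandas 2.3.3). Genes with a mean of at least 1 in at least 1 group were kept, and p-values were Benjamini-Hochberg adjusted over all genes of the tissue. Fold changes on this scale understate those of low genes. A simulation was also used to try the fit, but its result is not given. It is no evidence here that a shared spread suits the ovary groups, whose spreads were unequal.

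The genes and lists were chosen with earlier results of these data known. Named genes were the 6 highest in the ovary, per direction the 6 of smallest p at TP2 and the 3 with age, the 4 with the largest spread in control TP2, the 3 highest in brain and in fat body, those nearest the threshold, and the longest run. Genes called in brain and fat body, genes with narrow intervals and the 10 variable genes were named after their values were seen. Neighbours come from the gene order of the RefSeq assembly iyBomTerr1.2. No product names matched the planned lists. Alternatives changed the pseudocount, filter, scaling, groups fitted, weights, replicate block, depth term and libraries.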

Additional observations from a re-analysis of the deposited data

Results flagged for a closer look

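Of 68 combinations of a measure and a group of 4 to 6 queens, 16 held a queen far from the others by Dixon's gap test. The measures share queens, and the named genes were chosen in part by their values in these libraries. The number flagged therefore cannot be set against chance. For the summed share of the 280 genes these were brain control TP1 replicate 5, lowest at 1690 ppm, fat body control TP1 replicate 2, highest at 4401 ppm, ovary control TP1 replicate 3, lowest at 89515 ppm, and ovary egg removal TP1 replicate 5, highest at 166303 ppm.

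Ovary control TP2 replicate 5 stood far above the rest of its group in 7 named genes. Its normalized read count was 985640 in LOC100648536, 627868 in LOC105665834, 68261 in LOC100648421 and 17305 in LOC100643523. It was 13402 in LOC105666978, 4119 in LOC100644497 and 5878 in LOC105665909. Ovary control TP1 replicate 3 stood far below its group in LOC105665834, at 13934, and in LOC105665909, at 4656.

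LOC100642358 had a different queen far above the others in each of 3 ovary groups. It reached 21495 in egg removal TP1 replicate 4, 140722 in control TP2 replicate 4 and 42731 in egg removal TP2 replicate 3.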

How the results depend on the processing

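The count of enriched genes called between treatments at TP2 in the ovary, 239, stayed within 1.5 times under every alternative run, and was 213 to 248 when 1 queen was left out. Of all genes 32.4% to 71.3% were called in the alternative runs. The main fits did not take replicate numbers as pairs. Same-numbered queens of the ovary groups at TP2 correlated at -0.17 to 0.20, and those of the other comparisons at -0.59 to 0.64. These values cannot show whether the design was paired. With the replicate block 240 enriched genes were called in the ovary, 238 of them higher, and 58.8% of all genes were called. With age in egg removal no enriched gene was called in the ovary under any alternative run. Of all genes 2.18% were called there with weights per library and 0.0385% with weights per group.

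The count called lower in the ovary at TP2, 2, was 0 with the 2 groups alone, with weights per group and with the depth term. It was 8 with weights per library, and 1 where an absolute log2 change of at least 1 was also asked. It was 5 without control replicates 1 and 4 and 9 without replicates 1, 4 and 5, both chosen after seeing the data, and 0 to 2 with 1 queen left out. Of all genes 20.1% to 36.6% were called lower in these fits. LOC100649042 turned to -0.07 without replicates 1, 4 and 5, where 3 control queens remained.

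The brain count at TP2, 10, was 5, or 1.79%, with the 2 groups alone or weights per group, against 5.18% and 7.03% of all genes. It was 28, or 10%, with weights per library, against 22.4%. It was 4, or 1.43%, with the size limit, against 1.29%. With 1 queen left out it was 3 to 16, against 4.85% to 16.9%. With age it was 1, or 0.358%, with weights per library, against 0.443% of all genes. The fat body count at TP2, 2, was 0 with the 2 groups alone or weights per group, against 0% and 0.308% of all genes. It was 14, or 5%, with weights per library, against 18.6%. It was 1 with the replicate block or the size limit, against 2.46% and 2.84%. With 1 queen left out it was 1 to 10, against 0.116% to 13.2%. With age, 9 became 19 with weights per library, for which no share of all genes is given here. It was 2 to 16 with 1 queen left out, where 53 to 1481 of all genes were called.

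The rule gave 461 genes with a log2 threshold of 3 and 172 with 5, 165 when control TP2 queens chose, tried after seeing the data, and 264 to 288 with 1 control TP1 ovary left out. The causes were not tested.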
